A study of Mus musculus with 4 samples.

Results

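Chromatin accessibility was measured at the promoters of long noncoding RNAs (lncRNAs) in mouse embryonic fibroblasts with and without the histone acetyltransferase HAT1. A site was a region of the deposited ATAC-Seq table, an assay in which Tn5 inserts adapters where chromatin is open and reads are then counted per region. A site was taken as a lncRNA promoter site when it lay on an autosome, its midpoint was within 1 kb of the annotated start (TSS) of a lncRNA gene, and no TSS of a protein-coding gene was within 5 kb. This rule kept 1286 of 82325 sites. The cells were MEFs of C57bl6 background immortalized with SV40 T, and every line, WT included, carried that antigen. The genotypes compared were HAT1+/+ (WT, 2 lines) and HAT1-/- (KO, 2 lines), with 1 library per line. The KO lines came from embryos homozygous for the HAT1 deletion, so HAT1 was missing from every cell, and each library stood for a single line. With 2 lines per genotype, the site p-values came from limma, which takes the spread between these lines partly from the site and partly from all sites. An exact permutation test over libraries cannot go below 0.333.

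lncRNAs are transcribed by RNA polymerase II from promoters that are depleted of nucleosomes, as are those of coding genes, but many are weakly transcribed and restricted to few cell types. Some act at the locus they are made from, as the imprinted lncRNAs Airn and Kcnq1ot1 do in silencing neighbouring genes, some act in nuclear bodies, and others are mainly the precursors of microRNAs or small nucleolar RNAs. HAT1 acetylates newly made histone H4 before it is deposited behind the replication fork, and the comparison addressed whether accessibility at these promoters differed in cells without it.

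A total of 6 windows of 300 bases, each centred on the midpoint of its site, are printed because the comparison turns on them. The first 4 belong to the sites called lower in KO lines, the fifth to the upstream site of Malat1, and the last to the site with the highest mean value. They were read from the RefSeq assembly of GRCm38 (mm10), run 5′ to 3′ on the strand of the lncRNA, and have each CpG in capitals.
3100003L05Rik, chr7:124708933-124709232, minus strand: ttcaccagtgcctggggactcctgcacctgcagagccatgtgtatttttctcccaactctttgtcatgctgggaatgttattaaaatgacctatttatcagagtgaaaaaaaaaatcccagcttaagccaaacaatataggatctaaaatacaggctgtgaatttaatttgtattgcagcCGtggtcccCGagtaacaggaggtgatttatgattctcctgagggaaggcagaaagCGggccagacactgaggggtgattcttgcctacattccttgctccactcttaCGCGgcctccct
Gm11751, chr4:68022915-68023214, plus strand: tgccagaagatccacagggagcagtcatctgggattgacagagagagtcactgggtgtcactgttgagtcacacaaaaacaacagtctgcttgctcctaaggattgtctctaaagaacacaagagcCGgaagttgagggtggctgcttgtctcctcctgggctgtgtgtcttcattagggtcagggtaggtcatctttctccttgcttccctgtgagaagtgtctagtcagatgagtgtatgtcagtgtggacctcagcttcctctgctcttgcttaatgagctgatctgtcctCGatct
Gm16299, chr19:53824902-53825201, minus strand: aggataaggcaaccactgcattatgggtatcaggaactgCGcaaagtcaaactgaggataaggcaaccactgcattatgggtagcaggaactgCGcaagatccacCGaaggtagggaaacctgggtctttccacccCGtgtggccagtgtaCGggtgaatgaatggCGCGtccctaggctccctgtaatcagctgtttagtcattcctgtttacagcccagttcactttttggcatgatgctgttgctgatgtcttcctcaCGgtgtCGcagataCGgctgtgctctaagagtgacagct
BB218582, chr2:106650256-106650555, minus strand: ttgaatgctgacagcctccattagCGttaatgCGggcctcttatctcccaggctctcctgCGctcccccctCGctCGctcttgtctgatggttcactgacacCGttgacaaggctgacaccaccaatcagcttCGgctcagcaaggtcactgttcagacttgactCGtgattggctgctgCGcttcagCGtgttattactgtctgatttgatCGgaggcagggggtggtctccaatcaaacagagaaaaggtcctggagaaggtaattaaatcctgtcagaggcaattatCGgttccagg
Malat1, chr19:5803455-5803754, minus strand: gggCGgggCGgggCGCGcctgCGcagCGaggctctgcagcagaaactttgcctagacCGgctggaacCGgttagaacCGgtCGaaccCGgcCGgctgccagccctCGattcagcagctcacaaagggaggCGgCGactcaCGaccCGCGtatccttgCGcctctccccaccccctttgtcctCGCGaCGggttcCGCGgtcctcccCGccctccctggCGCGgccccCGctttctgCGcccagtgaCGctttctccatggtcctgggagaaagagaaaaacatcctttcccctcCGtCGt
Gm6410, chr8:4677954-4678253, plus strand: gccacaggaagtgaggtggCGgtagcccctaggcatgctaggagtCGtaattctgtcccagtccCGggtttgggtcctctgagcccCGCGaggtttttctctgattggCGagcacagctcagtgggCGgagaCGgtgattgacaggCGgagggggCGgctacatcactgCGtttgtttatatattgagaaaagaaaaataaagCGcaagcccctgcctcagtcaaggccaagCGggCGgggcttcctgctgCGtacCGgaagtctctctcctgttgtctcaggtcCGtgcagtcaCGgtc
The CpG counts of the windows, in that order, were 5, 2, 10, 12, 32 and 18. The TSS of Gm11751 was base 117 of its window, that of BB218582 base 192, that of Gm16299 base 74 and that of 3100003L05Rik base 298, whereas the TSSs of Malat1 and Gm6410 lay outside the windows shown. The Gm16299 window carried a direct repeat, a word of 29 bases found again 54 bases further on, and the longest such word was at most 8 bases in the other windows shown.

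The values were normalised counts: the authors scaled the read count of each site per library and rounded the result. Totals over all sites were 8008069 and 8150872 in WT replicates 1 and 2 and 8427919 and 8516263 in KO replicates 1 and 2. The underlying depth, estimated from the spacing of the low values, was about 9430000 and 11420000 reads in sites for WT and 7830000 and 5680000 for KO, so both KO libraries were shallower. In bulk libraries, fewer open cells and less cutting per cell cannot be told apart. One read was worth about 1.08 normalised counts for KO replicate 1 and 1.5 for KO replicate 2. The fibroblast label was checked at promoters of marker genes, of which 11 of 12 had a site (Pdgfra had none). Of other types, 1 of 5 haematopoietic genes (Csf1r, 17 to 31), 2 of 4 endothelial, 2 of 4 epithelial, 1 of 4 neural and 0 of 2 pluripotency genes had one. Endothelial Kdr (109 to 155) and neural Gfap (102 to 138) read about as high as fibroblast Col3a1 (83 to 156) and Prrx1 (68 to 134). Both were below most other fibroblast markers. Pecam1 (32 to 87), Cdh1 (29 to 52) and Epcam (12 to 33) read lower. The site at the start of Hat1 itself read 390 and 384 in WT and 438 and 368 in KO lines, and whether the deleted part of the gene covers it is not given in the sources used here, so it does not check the labels.

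Few lncRNA genes had a site at their outermost annotated TSS in these fibroblasts, and their other starts were not counted here. Of 6865 autosomal lncRNA genes whose TSS was more than 5 kb from any coding TSS, 1217 (17.7%) had a site within 1 kb, with 745 lincRNA genes (16.2%), 345 antisense genes (18.5%) and 125 genes of the processed transcript type (30.5%) among them. By the nearest gene, 770 sites belonged to lincRNAs, 382 to antisense genes, 131 to processed transcripts and 3 to bidirectional promoter lncRNAs. Most of these genes are known by a catalogue name alone, since 1104 sites (85.8%) were nearest to a lncRNA named Gm or Rik. In each library these sites took 1.90 to 1.93% of the total signal.

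Per 100 bp of site, lncRNA promoter sites stood between coding promoters and other distal sites. The median level was 13.8 normalised counts per 100 bp at lncRNA promoter sites (25th to 75th percentile 8.91 to 23.9), 25 at the 12153 sites within 1 kb of a coding TSS, and 10.3 at the 60826 other sites more than 5 kb from coding TSSs. The sites were also intermediate in length, with a median of 517 bp against 801 and 412 bp. The order held in every library, with medians per 100 bp of 14.8, 14.1, 14.5 and 13.8 for lncRNA promoter sites in WT replicates 1 and 2 and KO replicates 1 and 2.

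**Figure D1:**
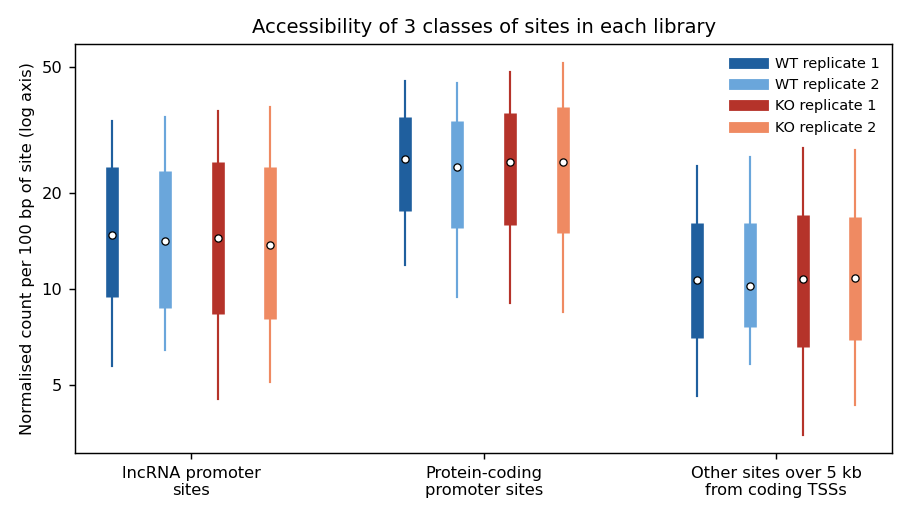
Normalised count per 100 bp of site (log axis) in each of the 4 libraries for 3 classes of sites. White points are medians, thick bars run from the 25th to the 75th percentile and thin lines from the 10th to the 90th. The lncRNA promoter sites, with medians of 13.8 to 14.8, lie between the coding promoter sites and the other distal sites, and the 4 libraries of a class overlap almost fully.

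Most lncRNA promoter sites lacked the CpG content of a coding promoter. The observed over expected CpG ratio in the central 300 bases had a median of 0.332, against 0.804 at coding promoter sites and 0.201 at other distal sites. Only 236 sites (18.4%) were CpG-rich, here a ratio of at least 0.6 with at least 55% GC, compared with 73.3% of coding promoter sites, 2.47% of other distal sites and 14.6% of all sites. The CpG-rich sites were the stronger ones, with a median of 24.2 normalised counts per 100 bp against 12.8 at the 1050 CpG-poor sites. By type, 35.9% of processed transcript sites were CpG-rich, 19.1% of antisense sites and 14.8% of lincRNA sites.

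**Figure D2:**
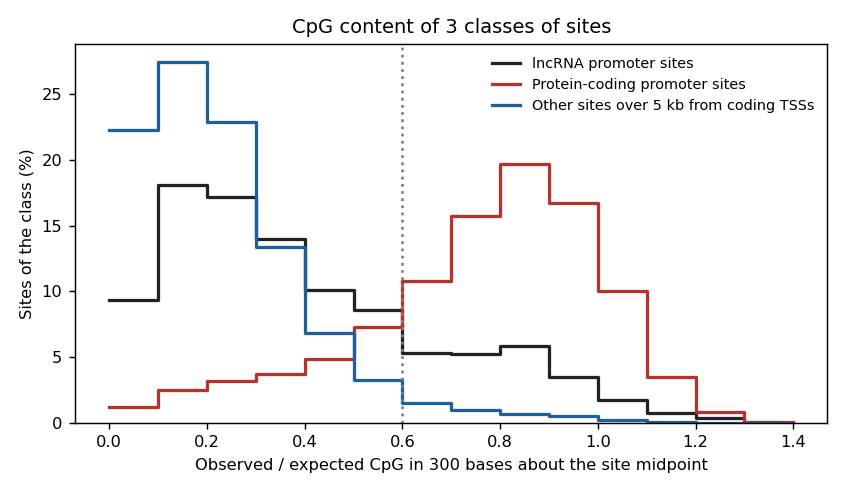
Share of sites (%) by observed over expected CpG ratio in 300 bases about the midpoint, for lncRNA promoter sites, coding promoter sites and other distal sites. The dotted line marks the ratio of 0.6. Most lncRNA promoter sites lie left of it with the distal sites (median 0.332), and a smaller shoulder lies with the coding promoters (median 0.804).

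The letters of known motifs followed the same gradient. Matches were sought on both strands of the 300-base windows, and a CCGGAA followed by TG also counts as GGAATG. The AP-1 letters TGANTCA, bound by Fos and Jun proteins, were in 30.7% of lncRNA promoter sites, 6.58% of coding promoter sites, 44.6% of other distal sites and 37.7% of all sites. The GC box GGGCGG, bound by Sp proteins, was in 23.0% of lncRNA promoter sites, 62.7% of coding promoter sites and 7.64% of other distal sites (17.3% of all). The ETS letters CCGGAA were in 11.8%, against 23.5%, 4.28% and 7.65% in the same order. Shares of the CCAAT box (32.2%, against 32.5% of all sites) and of the CTCF core (4.43%, against 4.40%) were close to those of all sites, and TATAAA was in 10.3% (14.6% of all), CACGTG in 6.30% (4.99%) and the TEAD letters GGAATG in 23.1% (24.7%). Among the printed windows, Gm11751 held TGANTCA and CCGGAA, BB218582 held CCAAT, 3100003L05Rik and Gm16299 held GGAATG, the Malat1 window held GGGCGG, and Gm6410 held the CCAAT box, the GC box, the TATA letters and the ETS letters.

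Between genotypes, accessibility of lncRNA promoter sites as a class was close to level. The median log2 fold change, KO against WT on the log2(value + 1) scale, was -0.01 over the 1286 sites and 0.01 over all sites. Taken over libraries, the median log2 level was 6.18 in WT and 6.13 in KO, a difference of -0.05 (exact permutation test, two-sided, p = 0.667, 2 lines against 2). The lines of one genotype differed from each other as much as the genotypes did. The SD of the log2 difference over these sites was 0.68 between the WT lines, 0.90 between the KO lines, and 0.68 to 0.86 for pairs across genotypes.

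At 4 lncRNA promoter sites accessibility was called lower in KO and at 0 it was called higher, with a call requiring an unadjusted limma p below 0.01 and a fold change of at least 1 on the log2 scale. The share called lower was 0.311%, beside 0.302% of all sites, and 0.0705% of all sites were called higher. At an unadjusted limma p below 0.05, 23 sites were lower and 17 higher, 3.11% in all beside 3.13% of all sites. After Benjamini-Hochberg adjustment over all sites 0 had p below 0.05, and every adjusted limma p was 1. Both KO lines were below both WT lines at 194 sites (15.1%, beside 14.3% of all sites) and above them at 173 (13.5%, beside 14.6%). Scaling the libraries to equal totals turned this split into 262 below (20.4%) and 126 above (9.80%), beside 19.04% and 10.89% of all sites. With quantile normalisation the split was 209 below (16.3%) and 139 above (10.8%), beside 14.5% and 13.1% of all sites. By size alone, 51 sites (3.97%) had a log2 fold change of -1 or lower and 16 (1.24%) of 1 or higher, against 4.84% and 1.58% of all sites.

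**Figure D3:**
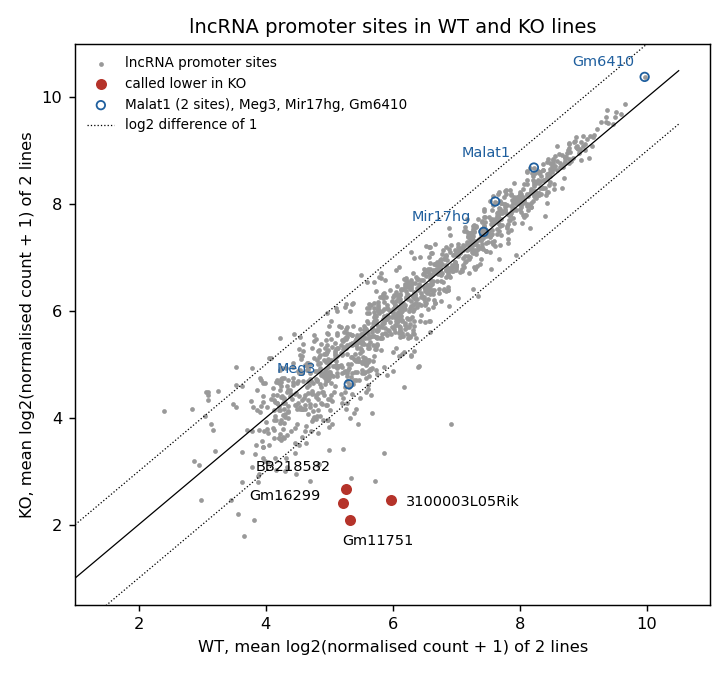
Mean log2(normalised count + 1) of the 2 KO lines against that of the 2 WT lines for each of the 1286 lncRNA promoter sites. The solid line marks equal values and the dotted lines a log2 difference of 1. The 4 called sites (red) lie far below the cloud at low to intermediate WT values, whereas both Malat1 sites and Gm6410 lie above the solid line.

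The called sites were nearly closed in both KO lines, and most were already weak in WT. Gm11751, Gm16299 and BB218582 read below the medians of all sites in both WT lines, which were 53 and 52. At 3100003L05Rik, a lincRNA on chromosome 7 (chr7:124708752-124709413) 726 kb from the nearest coding TSS, that of Hs3st4, the values were 106 and 36 in WT and 2 and 9 in KO. WT replicate 1 was well above WT replicate 2, yet even the lower WT value was above both KO values, and the log2 fold change was -3.52 (SE 0.83, unadjusted limma p of 0.0050, adjusted p = 1). At Gm11751, a lincRNA on chromosome 4 (chr4:68022819-68023310) 931 kb from Brinp1, the values were 37 and 41 in WT and 5 and 2 in KO. Both WT lines were alike here and both KO lines close to 0, with a log2 fold change of -3.24 (SE 0.73, unadjusted limma p of 0.0039).

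The remaining called sites lay nearer to genes. Gm16299 is annotated antisense inside Rbm20, which encodes a splicing factor of heart muscle, and its site (chr19:53824856-53825246) read 48 and 27 in WT and 3 and 6 in KO. The groups were well apart, with a log2 fold change of -2.81 (SE 0.71, unadjusted limma p of 0.0069). BB218582, of the processed transcript type, starts 42.9 kb from Mpped2, and its site (chr2:106650234-106650576) read 47 and 30 in WT and 3 and 9 in KO, a log2 fold change of -2.61 (SE 0.71, unadjusted limma p of 0.0099). All 4 sites were CpG-poor and had their midpoints within 147 bp of the TSS, and their KO values of 2 to 9 rested on few reads. Without WT replicate 1, or without WT replicate 2, 0 of the 1286 sites were called lower, without KO replicate 1 only Gm11751 was, and without KO replicate 2 there were 8, of which Gm11751 and BB218582 were among the 4.

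Sites at other starts of lncRNA genes added a microRNA host. The rule used the outermost TSS of each gene. With the TSSs of all annotated transcripts in its place, 1231 sites qualified and 6 were called lower, including the same 4. Over all sites, 249 of 82325 (0.302%) were called lower. The fifth was at an internal start of Mir99ahg, the host of let-7c, miR-99a and miR-125b, 93.0 kb from its gene-level TSS (chr16:77328987-77329700), chosen after its values were seen. It read 82 and 62 in WT and 9 and 15 in KO, so the lower WT value was far above the higher KO value (log2 fold change -2.52, unadjusted limma p of 0.0012). The other was 4933431J24Rik on chromosome 14 (chr14:118212731-118213158), 24.1 kb from Sox21, likewise chosen after its values were seen, with 109 and 63 in WT and 6 and 8 in KO (log2 fold change -3.40, unadjusted limma p of 0.00036).

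Among sites at or above the median signal of all sites and with no overlap between genotypes, the 5 largest differences in each direction missed the threshold. Gm5784 on chromosome 12 read 99 and 144 in WT and 3 and 53 in KO (log2 fold change -3.03, SE 1.13, unadjusted limma p of 0.034). KO replicate 1 set this size: without KO replicate 2 the log2 fold change was -4.91 and the site was called, and without KO replicate 1 it was -1.16. AC131323.5 on chromosome 17 read 82 and 84 in WT and 14 and 63 in KO, again with KO replicate 1 apart, and was called at -2.49 without KO replicate 2. Gm4610, antisense inside Bcar3, read 114 and 62 against 46 and 20, Gm47716 read 134 and 195 against 51 and 114, and Gm31881, antisense inside Gipc2, read 117 and 77 against 48 and 48. These 3 were lower in both KO lines, with unadjusted limma p-values of 0.031, 0.047 and 0.028.

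In the other direction the differences were smaller. 1700019P21Rik on chromosome 1 read 30 and 65 in WT and 80 and 129 in KO (log2 fold change 1.18, SE 0.47, unadjusted limma p of 0.044), with the higher WT value close to the lower KO value. Gm5103 read 62 and 36 against 82 and 105, and 4930504D19Rik, 58.7 kb from Cyp26b1, read 66 and 46 against 113 and 96. Gm47917, antisense inside Man1a, read 35 and 40 against 47 and 102, and Gm35454 read 42 and 70 against 82 and 119. Their log2 fold changes were 0.96, 0.91, 0.87 and 0.85, and their unadjusted limma p-values 0.044, 0.031, 0.099 and 0.067.

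The fold change of a lncRNA promoter site went with its signal, as at all sites, but its medians from 20 to 100 were lower than those of all sites. For mean values under 20 the median log2 fold change was -0.27 over 109 sites, beside -0.28 over all sites of that level. It was -0.12 for values from 20 to 50 (375 sites, all sites -0.06), -0.06 from 50 to 100 (308 sites, all sites -0.0024), 0.05 from 100 to 300 (361 sites, all sites 0.06) and 0.15 over 300 (133 sites, all sites 0.14). Above 300, 43 of the 133 sites (32.3%) had both KO lines above both WT lines and 4 (3.01%) had both below, beside 41.2% and 3.48% of all sites of that level. With quantile normalisation the medians, from the lowest level to the highest, became -0.04, -0.06, -0.07, -0.02 and 0.0027. Over all sites they were 0.02, 0.01, -0.0089, -0.0085 and -0.0033. With equal totals the lowest and highest level had -0.33 and 0.08, beside -0.35 and 0.07 over all sites. Both KO libraries were the shallower ones, and the part of depth in this trend was not tested.

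**Figure D4:**
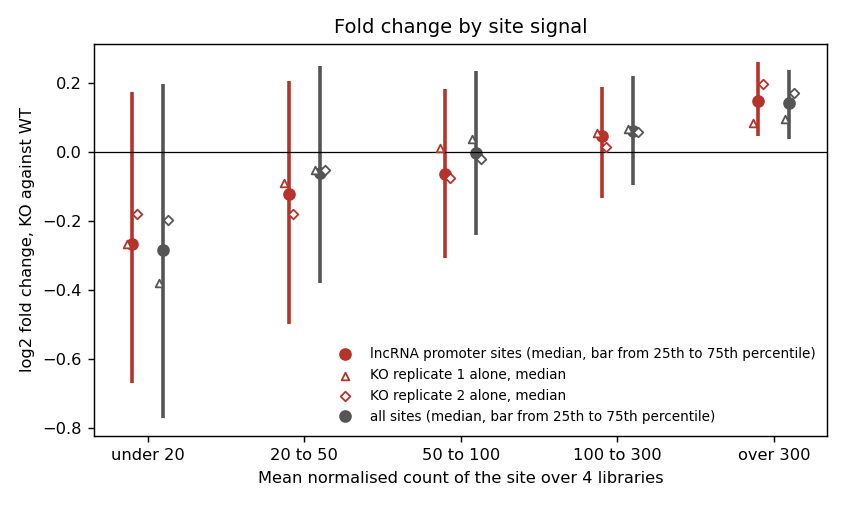
Median log2 fold change, KO against WT, by the mean normalised count of the site over the 4 libraries, for lncRNA promoter sites (red) and all sites (grey). Bars run from the 25th to the 75th percentile and open symbols give each KO line alone against the mean of the WT lines. The lncRNA promoter sites go from -0.27 under 20 to 0.15 over 300. Their medians lie below those of all sites from 20 to 50 and from 50 to 100.

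Splitting the sites by type or surroundings gave small shifts in the median. Over all sites, both KO lines were below both WT lines at 14.3% and above them at 14.6%. Beside these, antisense sites had 67 of 382 below (17.5%) and 40 above (10.47%), with a median of -0.02. Processed transcript sites had 12 of 131 below (9.16%) and 22 above (16.8%), with a median of 0.06, and lincRNA sites 115 of 770 below (14.9%) and 109 above (14.2%), with a median of -0.02. CpG-rich sites had a median of -0.03 and CpG-poor sites of -0.01. Surroundings were described by the number of coding TSSs in a window of 1 Mb centred on each site. With 0 to 3 in that window (gene-poor), 23 of 207 sites (11.1%) had a log2 fold change of -1 or lower. The share was 12.1% for all sites in such surroundings. With 18 or more in the window it was 8 of 275 (2.91%), beside 1.86% of all such sites. The 3 called sites at 3100003L05Rik, Gm11751 and BB218582 had 0, 0 and 3 coding TSSs in that window, and Gm16299 had 10. With 0 to 3 coding TSSs, 3 of 207 lncRNA promoter sites were thus called lower, beside 113 of 13608 of all sites (0.83%). Without regard to surroundings, 0.302% of all sites were called lower, so calls were more frequent in gene-poor surroundings over all sites too.

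A small group of lncRNA promoter sites lay in stretches where neighbouring sites were lower too. The mean log2 fold change of the 24 nearest other sites in order along the chromosome was below -0.58, the cutoff of the study for windows of 25 sites, at 29 of 1277 sites (2.27%, beside 3.41% of all sites) and above 0.58 at 0. Of these 29, 25 had a log2 fold change below 0, with a median of -0.93, and 14 (48.3%) had both KO lines below both WT lines. Among all sites in such stretches it was 2345 of 2794 below 0, with a median of -0.83, and 40.3% with both KO lines below. Against the mean of the WT lines, the median was -0.97 for KO replicate 1 and -0.51 for the other KO line. They included Gm11751, whose neighbours had a mean of -2.88, and 3100003L05Rik at the edge of the cutoff with -0.58. Gm28189 on chromosome 1, with 0 coding TSSs in the 1 Mb window centred on it, read 27 and 58 in WT and 2 and 17 in KO. Its neighbours had a mean of -1.30.

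Some lncRNA promoters in such stretches had KO values close to or above those of WT. C030034I22Rik on chromosome 17 read 314 and 284 in WT and 310 and 338 in KO while its neighbours had a mean of -0.82. Gm6634 on chromosome 3 read 161 and 174 against 153 and 188, with a neighbour mean of -0.71. In contrast AC127693.1, further along chromosome 17 among similar neighbours, read 36 and 36 against 5 and 18. These sites, and Gm28189, were chosen after their values were seen. Across all lncRNA promoter sites, the Spearman correlation between a site and its neighbours was 0.308 (1277 sites, which share the same 4 libraries), beside 0.302 for all sites.

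By chromosome, lncRNA promoter sites mostly followed the other sites of the same chromosome. On chromosome 19 the median log2 fold change was 0.26 over 34 sites, beside 0.23 over all its sites, with 0.53 in KO replicate 1 and 0.00039 in the other KO line. On chromosome 14 it was -0.19 over 43 sites, beside -0.18 over all its sites, and there the WT lines themselves differed by 0.38. On chromosome 18 the sites stood further from their surroundings, with a median of -0.18 over 40 sites beside -0.03, and 14 (35%) had both KO lines below against 3 (7.5%) above, beside 14.9% and 11.9% of all its sites. On chromosome 17 the median was -0.14 over 84 sites beside -0.01. These 4 directions were the same with quantile normalisation and with equal totals.

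Of 18 listed lncRNAs of nuclear bodies, the p53 response and growth, 7 had a promoter site, with 8 sites in all, and 0 were called (1 with an unadjusted limma p below 0.05). Of the others, 4 had a coding TSS within 5 kb and 3 had no site within 1 kb. A further 4 symbols were not annotated as lncRNA genes, among them Norad, which was also listed as 2900097C17Rik. Malat1, an abundant RNA of nuclear speckles, had a site at its TSS and one upstream. The upstream site (chr19:5803183-5804026), whose window is printed above, read 317 and 279 in WT and 416 and 406 in KO, and the groups did not overlap (log2 fold change 0.47, SE 0.14, unadjusted limma p of 0.017). The site at the TSS read 177 and 214 against 326 and 214, so one KO line equalled the higher WT line (log2 fold change 0.44, SE 0.26). Relative to the median of chromosome 19 the 2 log2 fold changes were 0.23 and 0.21. Neat1, which scaffolds paraspeckles, had no site within 1 kb of its TSS.

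The other growth-related promoters were close between genotypes. Trp53cor1 (lincRNA-p21), a p53 target next to Cdkn1a, read 106 and 105 in WT and 97 and 128 in KO. Pvt1, the neighbour of Myc, read 183 and 182 against 201 and 149, and Lncpint read 166 and 204 against 207 and 132. In each the KO lines lay on either side of at least one WT line. Dleu2 read 342 and 253 against 271 and 259, 2900097C17Rik (the mouse Norad) 48 and 65 against 58 and 68, and Epb41l4aos 206 and 197 against 216 and 247, and only at Epb41l4aos did the groups not overlap (log2 fold change 0.20, SE 0.19).

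Imprinted lncRNAs had sites at 5 of 12 listed genes, with 6 sites, 3 on each side of 0 and 0 called (0 with an unadjusted limma p below 0.05). Meg3, a maternally expressed RNA, read 31 and 48 in WT and 16 and 35 in KO, with overlap. B830012L14Rik, downstream in the same cluster on chromosome 12, read 23 and 29 against 18 and 12, without overlap (log2 fold change -0.77, SE 0.52, unadjusted limma p of 0.18). Airn, whose start lies in an intron of Igf2r, read 161 and 130 against 159 and 174 at its TSS and 102 and 80 against 95 and 71 upstream. Kcnq1ot1 read 170 and 241 against 187 and 286, and Nespas, antisense at the Gnas locus, 124 and 73 against 112 and 188. At Airn, Kcnq1ot1 and Nespas the genotypes overlapped. H19, Mirg, Snhg14 and Nctc1 had no site within 1 kb of their TSS, 2 others had a coding TSS within 5 kb, and 1 symbol was not annotated as a lncRNA gene.

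Hosts of small RNAs had sites at 11 of 30 listed genes, with 12 sites and 0 called (0 with an unadjusted limma p below 0.05). Of the other genes, 6 had a coding TSS within 5 kb, 5 had no site within 1 kb, and 8 symbols were not annotated as lncRNA genes. Of the 12 sites, 9 had a log2 fold change above 0 and 3 below. The counts were 7 and 5 with quantile normalisation and 8 and 4 with equal totals. These host sites were strong, with a median value of 202. Without rescaling, 39.1% of all sites with mean values from 100 to 300 and 17.6% of those over 300 were below 0. Dnm3os, the host of miR-199a and miR-214 in mesenchymal cells, read 418 and 517 in WT and 526 and 644 in KO at its TSS, without overlap (log2 fold change 0.32, SE 0.16, unadjusted limma p of 0.083). Its second site, 769 bp upstream, read 91 and 110 against 107 and 128. Carmn, the host of miR-143 and miR-145 in smooth muscle, read 559 and 789 against 768 and 970, with overlap. Mir17hg, the precursor of the growth-promoting miR-17 cluster, read 197 and 149 against 158 and 200, and both genotypes covered nearly the same range.

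The remaining hosts showed no separation beyond that of Mir670hg. Mir155hg read 133 and 111 in WT and 126 and 101 in KO, and Mir670hg 71 and 60 against 57 and 54, without overlap (log2 fold change -0.23, SE 0.31). The snoRNA hosts were Snhg5 with 416 and 322 against 379 and 538, Snhg6 with 199 and 237 against 226 and 250, and Snhg15 with 287 and 244 against 260 and 302. In all 3 the genotypes overlapped. Snhg12 read 180 and 170 against 181 and 159, Snhg17 read 224 and 241 against 238 and 260, and Snhg20 read 182 and 119 against 160 and 165, also with overlap.

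Of 37 listed developmental and Hox lncRNAs, only Tbx3os2 and Zeb2os had a site under the rule, and 0 were called (0 with an unadjusted limma p below 0.05). For 18 others a coding TSS lay within 5 kb of their own start, as at Hottip and Hotairm1, and 8, Hotair among them, had no site within 1 kb. The remaining 9 symbols were not annotated as lncRNA genes. Tbx3os2 read 40 and 29 in WT and 51 and 29 in KO. Zeb2os, antisense to the transcription factor gene Zeb2, read 142 and 146 against 128 and 131, below WT in both KO lines (log2 fold change -0.15, SE 0.23).

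**Figure D5:**
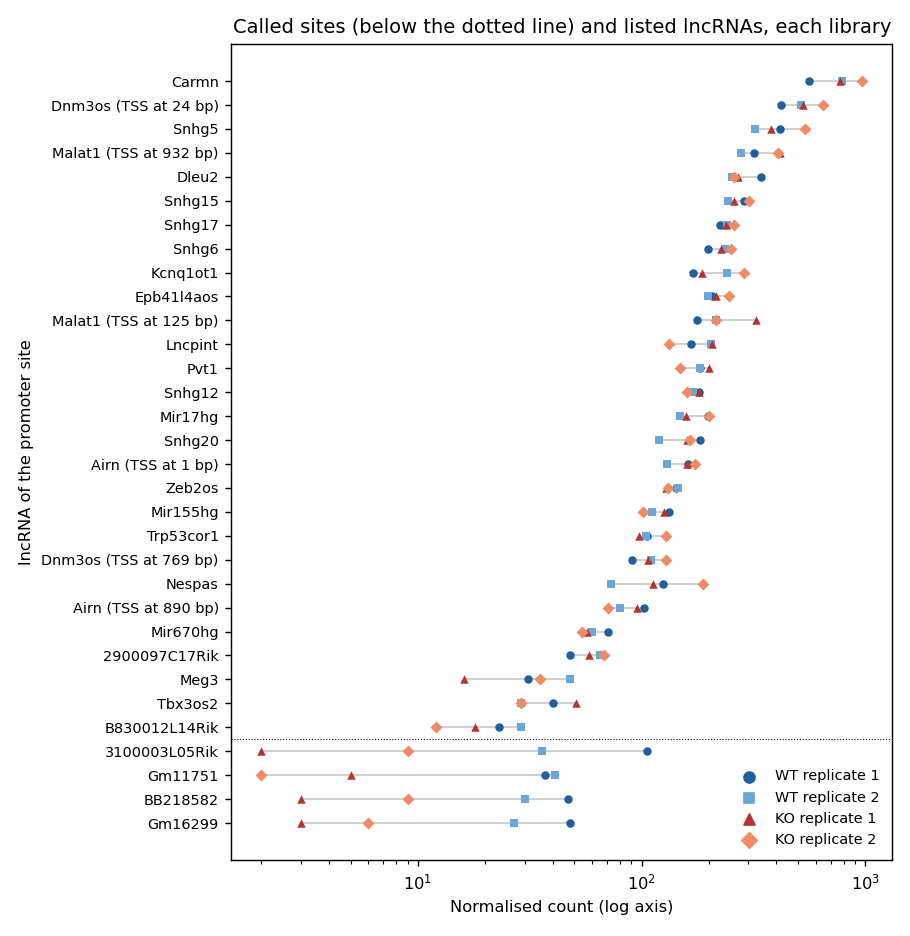
Normalised count (log axis) in each library at the 4 called sites, below the dotted line, and at the sites of the listed lncRNAs, above it. Circles and squares are WT replicates 1 and 2, and triangles and diamonds are KO replicates 1 and 2. At the called sites all KO points, from 2 to 9, lie left of all WT points, from 27 to 106, whereas at most listed lncRNAs the 4 points mix.

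The 5 strongest lncRNA promoter sites were broad and had log2 fold changes above 0, which 3 of them lost under quantile normalisation. Gm6410 on chromosome 8, 64.9 kb from the zinc finger gene Zfp958, read 1003 and 993 in WT and 1094 and 1630 in KO (log2 fold change 0.42, SE 0.17, unadjusted limma p of 0.049), and without KO replicate 2 the log2 fold change was 0.13. It had 73.2 normalised counts per 100 bp. Gm11527 read 854 and 761 against 891 and 999, Gm15287 read 738 and 720 against 749 and 962, and Cdk19os, the antisense partner of Cdk19, read 780 and 755 against 857 and 799. In RefSeq the Cdk19os site lies 73 bp from a coding start of Cdk19. The log2 fold changes of these 3 sites, 0.23, 0.22 and 0.11, turned to values below 0 with quantile normalisation. Carmn, given above, was the fifth.

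Where a gene had several sites, they did not always lie on the same side of 0. Of 99 genes with at least 2 sites, 67 had all of them on one side of 0, and no gene had more than 3. Gm31881 had a site with a log2 fold change of -0.97 and another with 0.85.

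At the borders of the rule the median signal was similar on both sides, but the CpG ratio differed at the coding border. Sites whose midpoint was 901 to 1000 bp from a lncRNA TSS had a median value of 50.8 normalised counts (75 sites), and those just outside, at 1001 to 1100 bp, 56.4 (60 sites). Sites 5001 to 6000 bp from a coding TSS had a median of 117.5 (38 sites) and those at 4001 to 5000 bp, which the rule left out, 100.5 (38 sites). At this coding border the median CpG ratio was 0.393 inside and 0.602 outside, and the median log2 fold change -0.03 and 0.09. At the lncRNA border these were 0.242 and 0.279, and 0.03 and 7.9e-17. The annotation also set limits. In RefSeq, 76 of the 1286 sites lay within 5 kb of a coding start or carried the symbol of a coding gene, among them Gm5784 and Cdk19os, and 75 windows held a word of 50 bases found elsewhere in the genome, which covered 39.4% of the words at Gm5784, 46.2% at 2900097C17Rik, 21.1% at Meg3 and 7.97% at Gm16299. How reads matching several places were treated is not given in the sources used here.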

How the data were processed

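ATAC-Seq libraries from 2 HAT1+/+ and 2 HAT1-/- immortalized MEF lines were analysed. Per the study's methods and the submitters' processing notes, the authors mapped the read pairs with BWA (0.7.12) to build mm10, called peaks with MACS2 (2.1.0) and compared genotypes with DESeq2. Read filters and the handling of the Tn5 offset are not given in the sources used here. The deposited values for each site and library are a score, namely counts scaled per library and rounded to whole numbers. The deposited columns of the authors' own comparison, fold changes and p-values, were not used. Because whole reads could not be recovered, no count test was run. Approximate depths of 9430000 and 11420000 (WT) and 7830000 and 5680000 (KO) reads in sites limit precision at low values.

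Log2(value + 1) of all 82325 sites was fitted with limma (3.58.1, R 4.3.3) with an intensity trend, no filter and no covariate. A site was called at an unadjusted p below 0.01 and a log2 fold change at or beyond 1 in either direction, and p-values were adjusted (Benjamini-Hochberg) over all sites. On simulated data, 200 sites at or above the median signal were changed by 2 on the log2 scale, with a spread smoothed over sites of like signal. Of these, 199 were called, and 376 unchanged sites were called too, among 82325 in all. All simulated sites of like signal had the same spread, unlike real sites. The 199 of 200 are therefore not a detection rate for the real data. In the real data 249 sites were called lower and 58 higher. The 4 called lncRNA promoter sites had mean values of 21 to 38.25, under the median of 52 over all sites, so this recovery does not cover sites as weak. Genes and TSSs came from GENCODE release 21 for mouse (GRCm38), and sequences, soft masking and coding starts from RefSeq. CpG ratio, GC and motif letters were computed in 300 bases about each midpoint. Named sites were those of listed lncRNAs, all called sites, the 5 strongest, and the 5 largest differences in each direction among sites at or above the median signal with no overlap between genotypes. The members, lists and rules were chosen with earlier results of these data known. Alternatives covered scaling, pseudocount, a filter on low values, the trend, thresholds, the TSS definition and leaving out each library. Python 3.11.15 with pandas 2.3.3 and scipy 1.17.1 was used for the tables.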

Additional observations from a re-analysis of the deposited data

How the results depend on the processing

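The 4 calls lower and 0 higher were the same numbers with quantile normalisation, equal totals, a pseudocount of 8, no fold filter, no intensity trend, midpoints within 500 bp and coding TSSs over 10 kb away, although without the trend 3100003L05Rik was lost and Gm13074 entered. Called lower were 2 sites when only sites with a mean of at least 20 were fitted, where Gm16299 and BB218582 missed the threshold, and 0 at an adjusted p below 0.05. Leaving out each library in turn, sites called lower ranged from 0 to 8 and called higher from 0 to 1, the 1 being a second site of Gm31881 without WT replicate 1. Under the same omissions, the lone line of a genotype was assumed to vary like the others. Sites with the KO values below then ranged from 384 to 491 and above from 351 to 436, and 3 libraries separate more easily than 4. Neither these counts nor the calls under the omissions have a share of all sites to set beside them. The median log2 fold change ranged from -0.03 to 0.02. That median was -0.076 with equal totals. Of 368 log2 fold changes of named sites under these settings, 327 kept direction and side of the threshold, 14 of called sites lost the call, 2 gained one and 25 changed sign, 0 of them at called sites. Quantile normalisation turned Cdk19os (-0.115), Gm11527 (-0.0150), Gm15287 (-0.0151), Mir17hg (-0.021) and Snhg15 (-0.016) below 0, and equal totals turned Mir17hg (-0.015), and the cause was not tested. The other 19 changes of sign came from leaving out 1 library, 9 of them KO replicate 2. Over these omissions the log2 fold change ranged from -0.049 to 0.38 at 2900097C17Rik, -0.34 to 0.072 at the upstream Airn site, -0.37 to 0.066 at Dleu2, -0.11 to 0.50 at Kcnq1ot1, -0.48 to 0.17 at Lncpint, -0.26 to 0.052 at Mir155hg, -0.15 to 0.25 at Mir17hg, -0.29 to 0.14 at Pvt1, -0.14 to 0.049 at Snhg12, -0.034 to 0.20 at Snhg15, -0.16 to 0.45 at Snhg20, -0.23 to 0.57 at Tbx3os2 and -0.12 to 0.28 at Trp53cor1. Alternatives chosen after seeing the data gave 4 sites called lower without sites near RefSeq coding starts and 3 without windows holding repeated words. Centring each chromosome gave 188 sites below and 212 above, with no share of all sites to set beside these counts. Depth limits low sites most, and sites under 20 had 0 calls. No paired analysis was possible because WT replicate 1 and KO replicate 2 alone have line names with a number in common, and the labels do not state its meaning.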

Other observations

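Some lncRNA promoters were open in single lines regardless of genotype, and the following sites were chosen after their values were seen. The log2 difference between the WT lines was at least 1 in size at 164 lncRNA promoter sites (12.8%, beside 13.5% of all sites) and between the KO lines at 248 (19.3%, beside 20.8%). 1700030C10Rik on chromosome 12, with a CpG ratio of 0.873, read 107 and 3 in WT and 2 and 174 in KO, so that one line of each genotype was open and one closed. Gm42031 on chromosome 8 showed the same arrangement, with 207 and 23 in WT and 15 and 134 in KO. At both sites the open lines were WT replicate 1 and KO replicate 2, whose names have a number in common, and what that number marks is not stated in the labels. Gm4425 on chromosome 12 read 8 and 95 against 9 and 77, and 40.2% of the words of 50 bases in its window occur elsewhere in the genome. Gm41277 on chromosome 15, 755 kb from Cdh10, read 54 and 60 in WT and 1 and 50 in KO, closed in KO replicate 1 alone. 5033428I22Rik, near Hand2, read 10 and 6 in WT and 72 and 2 in KO, open in KO replicate 1 alone.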
